A study of Mus musculus with 6 samples.

Results

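Pdgfra, Cspg4, Olig1, Olig2, Cacng4, Sox10, Gpr17, Vcan and Ptprz1 mark oligodendrocyte precursor cells or the cells that have just left that state. These 9 genes were set by name, and all 9 were found among the 21878 genes of the deposited tables and passed the filter on low counts. Bulk RNA sequencing was done on whole prefrontal cortex, with no sorting of cells, from 6 mice in 2 groups of 3. Control mice carried CamKIIαCre and 2 unfloxed Gls1 alleles (CamKIIαCre;Gls1+/+; the sample labels call their genotype WT). Gls1_CamkIIaCre mice carried CamKIIαCre and 1 floxed Gls1 allele (CamKIIαCre;Gls1+/flox), so every mouse of both groups carried the Cre transgene. The CamKIIα promoter drives Cre in excitatory neurons of the forebrain, the mutants are mosaic and heterozygous, and the series text describes controls as littermates. Age is not given in the labels used here. The comparison asks how cortical transcripts differ when 1 Gls1 allele is lost in part of these neurons; precursor cells were not the cells in which this promoter drives Cre.

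Oligodendrocyte precursors are dividing glia spread through grey and white matter, and they renew themselves or mature into the oligodendrocytes that wrap axons in myelin. Their growth and survival depend on platelet-derived growth factor acting on the receptor encoded by Pdgfra, and their lineage is set by the transcription factors Olig1, Olig2 and Sox10, which stay on in mature oligodendrocytes. Precursors also receive synapses from neurons and respond to glutamate through AMPA receptors. Several of the 9 genes are used by other cells of cortex as well: Pdgfra and Vcan by fibroblasts, Cspg4 by pericytes, and Ptprz1 by astrocytes. In bulk tissue, fewer cells of a type and less RNA per cell cannot be told apart.

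Olig1 and Olig2 are the only neighbours in the genome among the 9 genes. By the RefSeq annotation of GRCm38.p6, Olig2 (chr16:91225550-91228677) and Olig1 (chr16:91269769-91271939) are 41.1 kb apart, with 0 annotated genes wholly between them. Pdgfra lies at chr5:75151322-75198206, Cspg4 at chr9:56865104-56899870, Cacng4 at chr11:107732357-107794706, Sox10 at chr15:79154913-79164490, Vcan at chr13:89655309-89743027 and Ptprz1 at chr6:22875315-23052916. Gpr17 lies inside the span of the protein-coding gene Lims2, and long non-coding genes overlap Olig2, Cacng4, Vcan and Ptprz1. Whether reads were counted by strand is not given in the sources used here, so reads from bases shared by such a pair may not be told apart. Spans were compared and not exons, and these long non-coding genes were not found in the deposited tables. Lims2 had 111 to 178 counts per library against 709 to 905 for Gpr17.

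RefSeq promoter sequences were found for 5 of the 9 genes. Those of Pdgfra, Vcan and Ptprz1 belong to transcripts that start inside the gene spans given above, and are not shown. For the other 2, Olig2, which fell in the mutants, and Cspg4, which did not pass the test, the 250 bases just before the annotated start of the gene are shown, 5′ to 3′ (chr16:91225300-91225549 and chr9:56864854-56865103, both on the plus strand). Capitals mark matches on either strand to the E-box CAGCTG, the E-box variant CATATG, a further variant written CAGATG (proteins of the Olig family bind E-boxes), to the SOX core ACAAAG, to the TATA box TATAAA and to the CCAAT box, the last of which, like the TATA box, was added after the sequences were seen.
Olig2: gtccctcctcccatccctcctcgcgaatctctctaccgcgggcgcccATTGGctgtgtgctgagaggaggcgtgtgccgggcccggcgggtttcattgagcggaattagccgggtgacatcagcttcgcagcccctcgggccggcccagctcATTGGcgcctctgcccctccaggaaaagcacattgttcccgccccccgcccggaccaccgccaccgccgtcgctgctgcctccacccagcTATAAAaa
Cspg4: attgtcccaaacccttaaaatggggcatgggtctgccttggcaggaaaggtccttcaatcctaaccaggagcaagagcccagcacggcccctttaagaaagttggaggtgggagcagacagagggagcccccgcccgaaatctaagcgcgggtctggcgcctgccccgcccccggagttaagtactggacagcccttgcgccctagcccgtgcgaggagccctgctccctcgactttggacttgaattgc
TATAAA occurred 1 time before Olig2, as in 12.4% of 32851 promoter windows of the same length, and the CCAAT box 2 times there, on the opposite strand (33.8% of all windows hold it). CAGCTG (found in 13.0% of all windows), CATATG (found in 3.46%), the further variant (found in 14.4%) and the SOX core (found in 16.5%) did not occur in either window, nor did the TATA or CCAAT box before Cspg4. The Olig2 window was 66.8% G and C and the Cspg4 window 60.4%, against a median of 52.4%. A match is a description of letters and not a bound site.

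Library totals lay between 17987807 and 19330961 counts, and edgeR's quasi-likelihood test called 1190 of 14440 genes tested at a Benjamini-Hochberg adjusted p under 0.05, or 8.24%. Markers of cortical excitatory neurons were present in every library, at a summed level of 6373 to 7219 CPM (counts scaled to library size with TMM factors). Markers of striatum, the region under the frontal cortex, were also present, and 17 of 20 fell in the mutants. Control replicate 2 stood apart on that list: its level, relative to each gene's mean over the 6 libraries, was 2.08, while the other control libraries had 1.16 and 1.41, and mutant libraries 0.424 to 0.484.

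Of the 9 precursor genes, Olig1, Olig2 and Cacng4 fell and Ptprz1 rose. Thus 4 of 9 passed, where 8.24% of all genes tested did: 3 fell, against 4.29% of all genes, and 1 rose, against 3.95%. The genes were chosen with results of these data known. The median log2 fold change of the 9 was -0.075 against -0.002 for all genes tested, and 6 of the 9 had a negative value. The control and mutant libraries did not overlap for 5 of the 9 (the 4 above and Vcan), as for 26.7% of all genes tested.

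**Figure D1:**
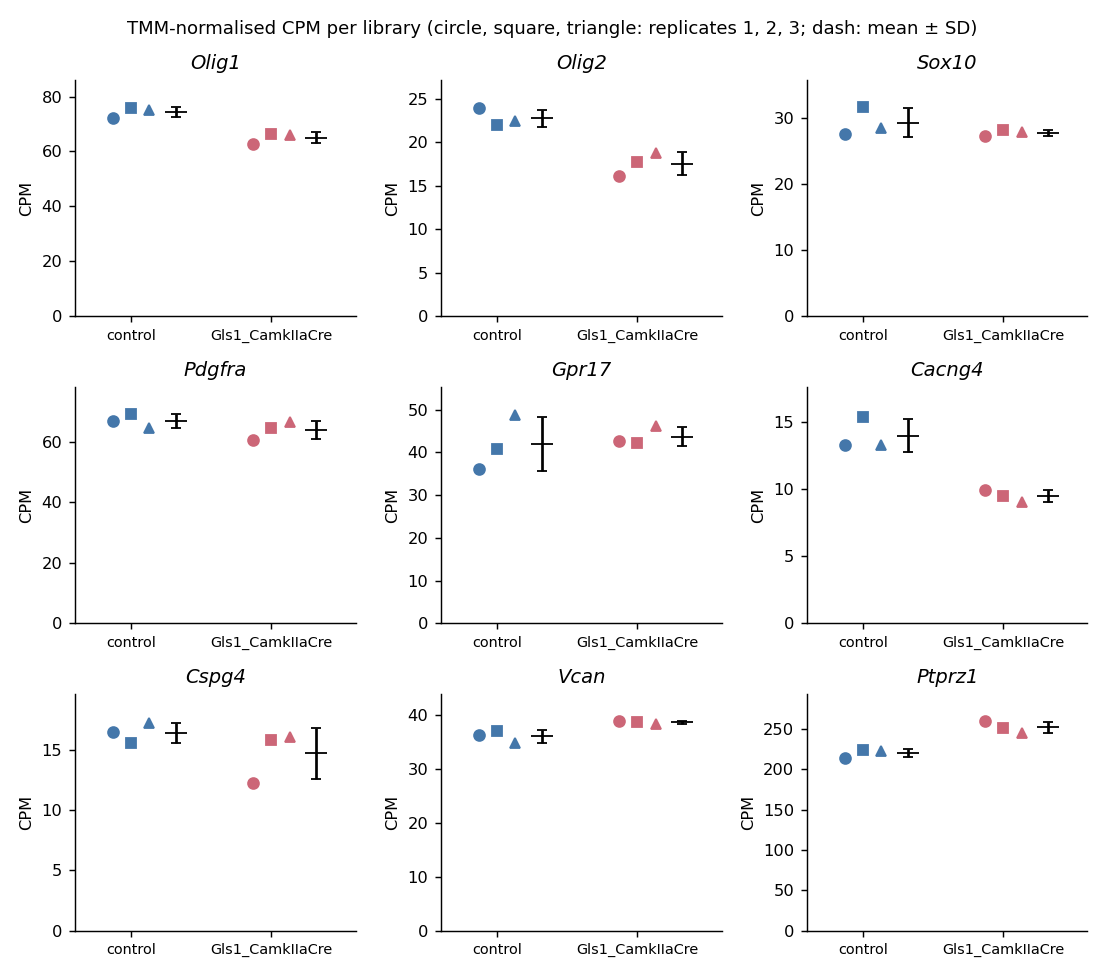
TMM-normalised CPM (vertical axis from 0) of each precursor gene in the 3 control (blue) and 3 Gls1_CamkIIaCre (red) libraries, with the mean ± SD of each group. Olig1, Olig2 and Cacng4 lie lower and Ptprz1 and Vcan higher in every mutant library, while the groups overlap for Sox10, Pdgfra, Gpr17 and Cspg4.

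Among the 3 transcription factors, Olig2 and Olig1 fell and Sox10 did not pass. Olig2, a basic helix-loop-helix factor that specifies the lineage, had 23.9, 22.0 and 22.4 CPM in the controls and 16.2, 17.7 and 18.8 CPM in the mutants. Every mutant library lay below every control. Its mean fell from 22.8 ± 0.984 to 17.6 ± 1.31 CPM (SD, n = 3 per group), a log2 fold change of -0.38 ± 0.081 (SE, edgeR adjusted p = 0.00655), and it also passed when any single library was left out.

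Olig1, its neighbour and a member of the same family, which supports maturation and repair of myelin, had 72.1, 75.8 and 74.9 CPM in the controls and 62.8, 66.3 and 66.1 CPM in the mutants. The groups did not overlap, though the shift was smaller, at -0.19 ± 0.049 (SE) on the log2 scale (edgeR adjusted p = 0.0192). The call for Olig1 was lost without control replicate 2 (log2 fold change -0.17, adjusted p = 0.0882), without Gls1_CamkIIaCre replicate 1 (-0.17, 0.0903) and without Gls1_CamkIIaCre replicate 2 (-0.20, 0.0586).

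Sox10, the factor that switches on myelin genes with Myrf, had 27.5, 31.7 and 28.5 CPM in the controls and 27.3, 28.1 and 27.9 CPM in the mutants. The groups overlapped, and Sox10 did not pass (-0.08 ± 0.070 SE, edgeR adjusted p = 0.584). Set against Sox10 in the same library, which takes out any scaling between libraries, Olig2 stood at 86.8, 69.4 and 78.7 counts per 100 Sox10 counts in the controls and at 59.3, 63.0 and 67.3 counts in the mutants. These ratios do not overlap either, and they were chosen after the values were seen and are given without a test.

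Among the receptors and channels, Cacng4 had the largest difference of the 9 genes. It encodes the AMPA receptor auxiliary subunit gamma-4, which governs how the receptors open and reach the membrane, and which is known from precursor cells and from striatal neurons alike. Its level was 13.3, 15.4 and 13.3 CPM in the controls and 9.96, 9.47 and 9.02 CPM in the mutants, and the groups did not overlap. The mean fell from 14.0 ± 1.23 to 9.48 ± 0.472 CPM (SD, n = 3 per group), a log2 fold change of -0.56 ± 0.105 (SE, edgeR adjusted p = 0.00238). Leaving out control replicate 2, the highest in Cacng4 and in striatal transcripts, gave -0.48 (adjusted p = 0.0217). Of the 5 other Cacng genes tested, 0 passed by edgeR, DESeq2 or limma voom, and 0 had an unadjusted edgeR p under 0.05. As 8.24% of all genes tested passed, 0 of 5 does not set Cacng4 apart from its family. Cacng7, of smallest p, had 206 against 196 CPM.

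Pdgfra, the growth factor receptor that defines the precursor state, had 66.7, 69.2 and 64.5 CPM in the controls and 60.7, 64.5 and 66.5 CPM in the mutants. The groups overlapped, and Pdgfra did not pass (-0.06 ± 0.052 SE, edgeR adjusted p = 0.515). Per 100 Pdgfra counts, Cacng4 had 19.9, 22.3 and 20.6 counts in the controls and 16.4, 14.7 and 13.6 counts in the mutants. These ratios did not overlap between the groups, but Pdgfra itself differed little, so they largely repeat the difference in Cacng4. Striatal neurons also make Cacng4 and fibroblasts Pdgfra, so the ratio is not a level per precursor cell. It was chosen after the values were seen and was not tested.

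Gpr17, an orphan receptor of precursors committed to maturation, spread most among the controls, at 36.2, 40.7 and 48.7 CPM. The mutants, at 42.6, 42.2 and 46.2 CPM, all lay inside that range (log2 fold change 0.06 ± 0.092 SE, edgeR adjusted p = 0.753). The coefficient of variation of Gpr17 was 15.1% over the controls, against 2.43% to 8.77% for the other 8 genes there. Without control replicate 1 its log2 fold change was -0.03.

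The last group, Cspg4, Vcan and Ptprz1, are chondroitin sulfate proteoglycans of the cell surface and matrix. Cspg4, which encodes NG2, had 16.4, 15.6 and 17.2 CPM in the controls and 12.3, 15.8 and 16.03 CPM in the mutants. A single library, Gls1_CamkIIaCre replicate 1, lay below the controls' range by more than their spread, and Cspg4 did not pass (-0.16 ± 0.102 SE, edgeR adjusted p = 0.382; -0.05 without that library). Vcan, the matrix proteoglycan versican, had 36.3, 37.2 and 34.9 CPM in the controls and 39.0, 38.7 and 38.5 CPM in the mutants. Its groups did not overlap, but the difference was small and did not pass (0.10 ± 0.059 SE, edgeR adjusted p = 0.330).

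Ptprz1, a receptor tyrosine phosphatase that binds pleiotrophin and that precursors share with astrocytes, moved the other way. It had 214, 224 and 223 CPM in the controls and 259, 251 and 245 CPM in the mutants, with every mutant library above every control. The group means were 220.4 ± 5.36 and 251.8 ± 7.31 CPM (SD, n = 3 each), a log2 fold change of 0.19 ± 0.039 (SE, edgeR adjusted p = 0.00491), and Ptprz1 passed with any single library left out. Its ligand genes did not pass: the log2 fold change of Ptn was -0.09 (edgeR adjusted p = 0.199).

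**Figure D2:**
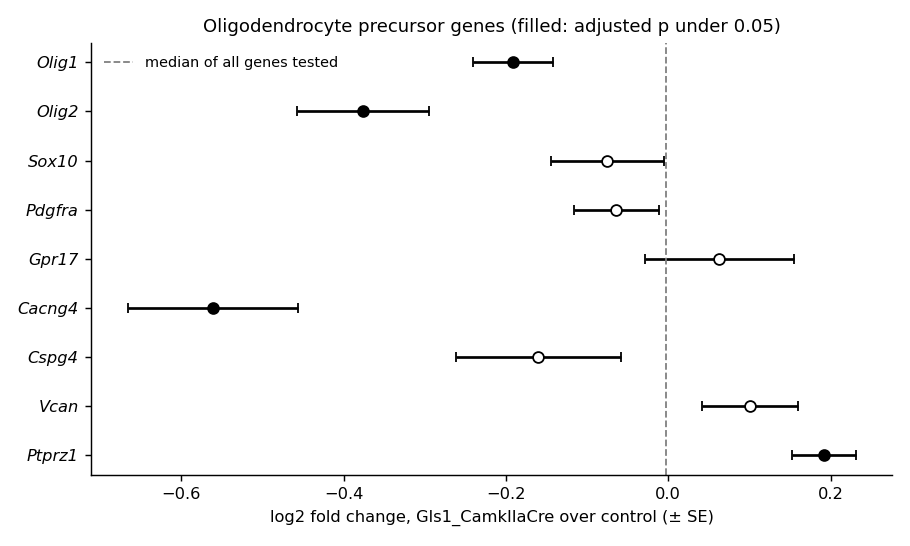
Log2 fold change of each precursor gene (horizontal axis, Gls1_CamkIIaCre over control) with its standard error from edgeR, in the order of the text; filled points have an adjusted p under 0.05 and the dashed line is the median of all genes tested, -0.002. Cacng4 lies farthest to the left at -0.56 and Ptprz1 farthest to the right at 0.19.

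Levels can be compared between genes only per length, in the deposited FPKM values. In the controls Olig1 was highest at 53.2 ± 2.10 FPKM (SD, n = 3), followed by Ptprz1 at 17.2 ± 0.237, Cacng4 at 12.3 ± 0.793, Olig2 at 10.9 ± 0.621, Sox10 at 9.37 ± 0.751, Gpr17 at 6.32 ± 0.875, Pdgfra at 6.30 ± 0.208, Cspg4 at 1.76 ± 0.067 and Vcan at 1.32 ± 0.029 FPKM. Of these neighbours, the control libraries of Cacng4 and Olig2 overlapped, as did those of Gpr17 and Pdgfra. In the mutants Sox10, at 8.39 FPKM, stood above Olig2 at 7.95 and Cacng4 at 7.92 FPKM, which it followed in the controls, although the mutant libraries of these 3 genes overlapped from each to the next. The FPKM values summed to less in the mutants (238924 to 243144 per library) than in the controls (249602 to 252272), so levels across groups are better read from the CPM.

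**Figure D3:**
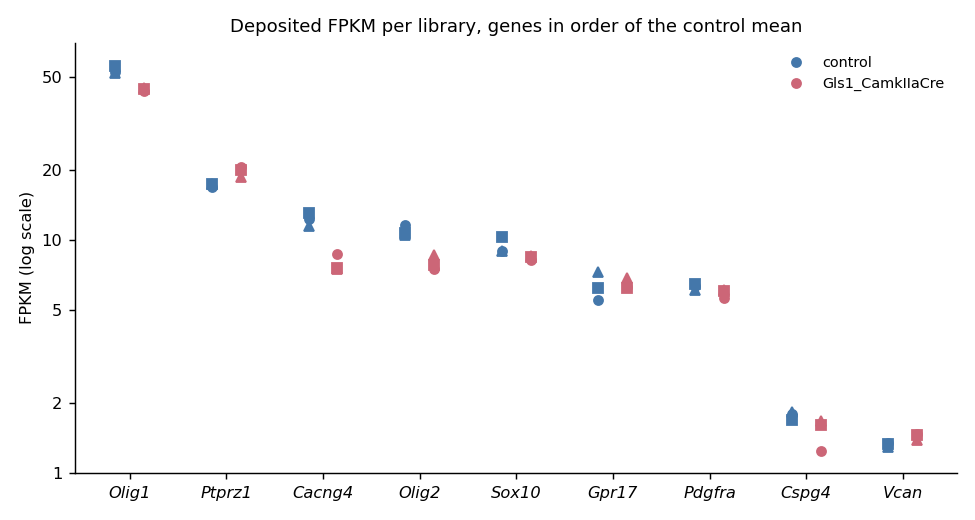
Deposited FPKM (log scale) of the 9 precursor genes in each library, in order of their control mean, with controls in blue and Gls1_CamkIIaCre in red and a symbol for each replicate. Olig1 lies above the other genes in every library, and Cspg4 and Vcan lie below them, between 1.24 and 1.82 FPKM.

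A second list held 16 other genes of precursor cells. Of these 16, 2 rose and 0 fell by edgeR, with a median log2 fold change of -0.04. DESeq2 and limma voom each called 2. An unadjusted edgeR p under 0.05 was found for 6, with falls as well as rises among them. The 2 calls by edgeR are 12.5% of the list, against 8.24% of all genes. Xylt1, which starts the synthesis of chondroitin sulfate chains, rose from a mean of 22.7 ± 0.566 to one of 29.1 ± 0.278 CPM, and Dscam, an adhesion molecule that neurons also make, from 83.4 to 99.2 CPM (SD with n = 3 in each group; adjusted p by edgeR 0.00253 and 0.00323). Dscam lost its call on both FPKM inputs. The other 14 genes ranged from Megf11 at -0.29 ± 0.106 and Susd5 at -0.25 ± 0.115, through Lhfpl3 at -0.05 ± 0.068, C1ql1 at -0.01 ± 0.137 and Pcdh15 at 0.00 ± 0.120, to Cspg5 at 0.09 ± 0.037 (log2 fold change ± SE, adjusted p by edgeR of 0.0961 or more), and these 6 were named after their values were seen.

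Some genes of later stages of the lineage fell. Of 17 genes of committed and newly formed oligodendrocytes, 2 fell, Bcas1, a gene of early myelinating cells, and Myrf, the master regulator of myelin genes, both by a log2 fold change of -0.26 (edgeR adjusted p = 0.0109 and 0.0275), and the median was -0.09. Both lost their call without control replicate 2 (adjusted p = 0.0584 for Bcas1 and 0.168 for Myrf), without Gls1_CamkIIaCre replicate 1 (0.0584 and 0.124) and without Gls1_CamkIIaCre replicate 2 (0.0798 and 0.0761), and Myrf also with DESeq2 (0.0584) and on both FPKM inputs (0.0747 and 0.0689). Of 20 genes of mature oligodendrocytes and myelin, 10 fell and all 20 had a negative value, with a median of -0.25. The calls made up 11.8% of the committed list (DESeq2 called 1 and limma voom 2). They made up 50% of the mature list (DESeq2 called 9 and limma voom 10). Of all genes tested, 4.29% fell and 50.8% had a negative value. Trf, the iron carrier transferrin, fell from 172 to 130 CPM, Mag, a myelin adhesion protein, from 98.4 to 78.1 CPM, Ppp1r14a from 9.09 to 5.99 CPM and Fa2h, which makes the hydroxylated lipids of myelin, from 26.1 to 20.2 CPM. Among the genes of the mature list that did not pass were Mbp, Mog and Mobp (edgeR adjusted p = 0.209, 0.0849 and 0.64), named after their values were seen. The summed levels of the mature list overlapped, at 4299 to 5048 CPM in the controls and 3876 to 4382 CPM in the mutants. The difference between the stages was not tested.

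**Figure D4:**
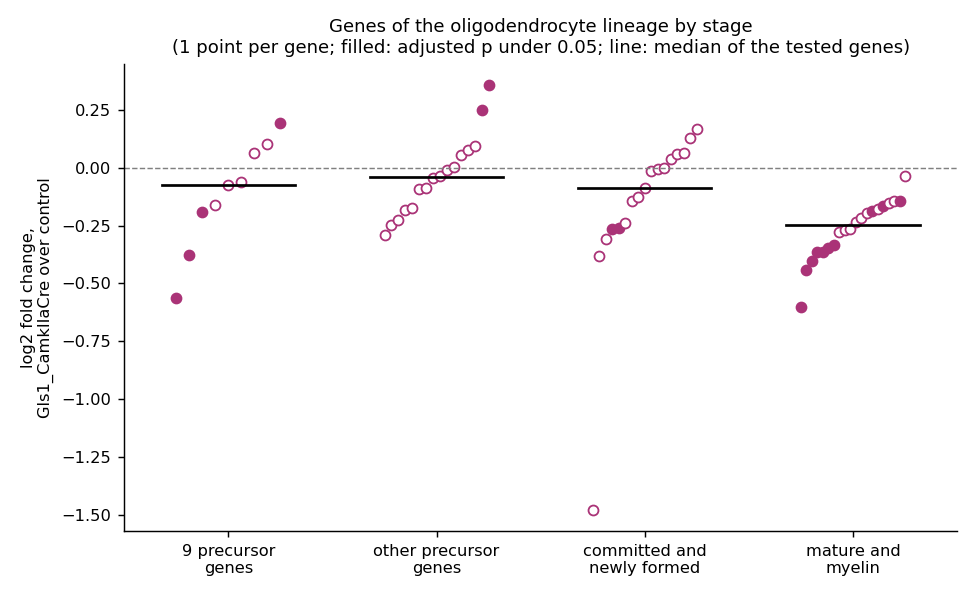
Log2 fold change (vertical axis, Gls1_CamkIIaCre over control) of each gene of 4 lists along the oligodendrocyte lineage, with filled points at an adjusted p under 0.05 and a line at each list's median. The median is -0.075 for the 9 precursor genes, -0.04 for other precursor genes, -0.09 for committed and -0.25 for mature cells; the lowest point, Casr at -1.48, did not pass (adjusted p = 0.121).

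Genes that act with the 9 are read against the 8.24% of all genes that passed. Of 20 transcription factors and chromatin regulators of the lineage, 1 rose and 2 fell (15% in all; DESeq2 called 1 and limma voom 2), with a median of -0.01: Chd8, a chromatin remodeller, had 0.15, Id4, an inhibitor of helix-loop-helix factors that binds Olig proteins, -0.27, and Myrf -0.26. Id4 passed under all 16 alternatives other than the striatum covariate, and Chd8 under 5, being lost with DESeq2 (adjusted p = 0.0667), limma voom (0.056), upper-quartile factors (0.0664), a fit without robust (0.0594), both FPKM inputs, and without any single library but control replicate 3 (0.0727 to 0.191). Sox8 and Sox9, relatives of Sox10, had -0.01 and 0.01 and did not pass. On the list of 15 genes of PDGF signalling, Pdgfrb, the other PDGF receptor and a pericyte gene, fell by 0.35 on the log2 scale (edgeR adjusted p = 0.00511). It was the single call of that list (6.67%), and Pdgfa, the ligand that precursors respond to, had 0.02 (adjusted p = 0.899). Of 22 genes for proteoglycans, their partners and their synthesis, Xylt1 and Nrcam, a neuronal adhesion molecule, rose by 0.36 and 0.20 and Hapln2, a link protein of nodes made by oligodendrocytes, had -0.37 (13.6% of the list passed), with a list median of 0.01.

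The deposited gene annotation places 4 of the 9 genes (Olig1, Olig2, Sox10 and Ptprz1) under oligodendrocyte differentiation, a term held by 0.140% of 20677 annotated genes. Both directions of change occurred within it. For each gene, the gene most like it over the 6 libraries, by Pearson correlation of log2 CPM among 10266 candidates, was no other member of the 9. For example, Slc29a3 was most like Olig2 (r = 0.997), Dgat2 most like Olig1 (0.999), Smim20 most like Cacng4 (0.999) and Rfwd2 most like Pdgfra (0.995). With 6 libraries in 2 groups and so many candidates, such values describe these libraries only.

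Markers of other cells differed between the groups alongside these genes. For comparison, 4.29% of all genes tested fell and 3.95% rose. Of 20 striatum genes, 17 fell, with summed levels of 1194 to 1860 CPM in the controls and 609.7 to 673 CPM in the mutants. Fibroblast and meningeal genes, whose cells also make Pdgfra and Vcan, fell in 8 of 12 (207.5 to 228.9 against 153.7 to 179.9 CPM). Pericyte and smooth muscle genes, whose cells also make Cspg4, fell in 5 of 12 (302.5 to 345.5 against 265.6 to 288.9 CPM). Astrocyte genes, whose cells also make Ptprz1, fell in 5 of 15, though summed levels overlapped (6296 to 6622 against 6141 to 6335 CPM). Of these 5, Gjb6 passed under all 16 alternatives other than the striatum covariate, Gja1 under 11, Aldoc under 8, Ntsr2 under 7 and S100b under 6. Microglia genes fell in 4 of 12 (520.7 to 566.9 against 468.8 to 502.2 CPM). Each gene of these 5 lists had counts in all 6 libraries, and the part of these cells in the values of the 9 genes was not tested. Cortical excitatory neuron genes fell in 0 of 12 by edgeR and rose in 2 (6 at an unadjusted p under 0.05, 4 called by DESeq2 and by limma voom), Fezf2 at 0.35 and Neurod2 at 0.26. Both calls were lost on the FPKM inputs, without control replicate 2 and without Gls1_CamkIIaCre replicate 2, and that of Neurod2 also without control replicate 1 or Gls1_CamkIIaCre replicate 3.

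**Figure D5:**
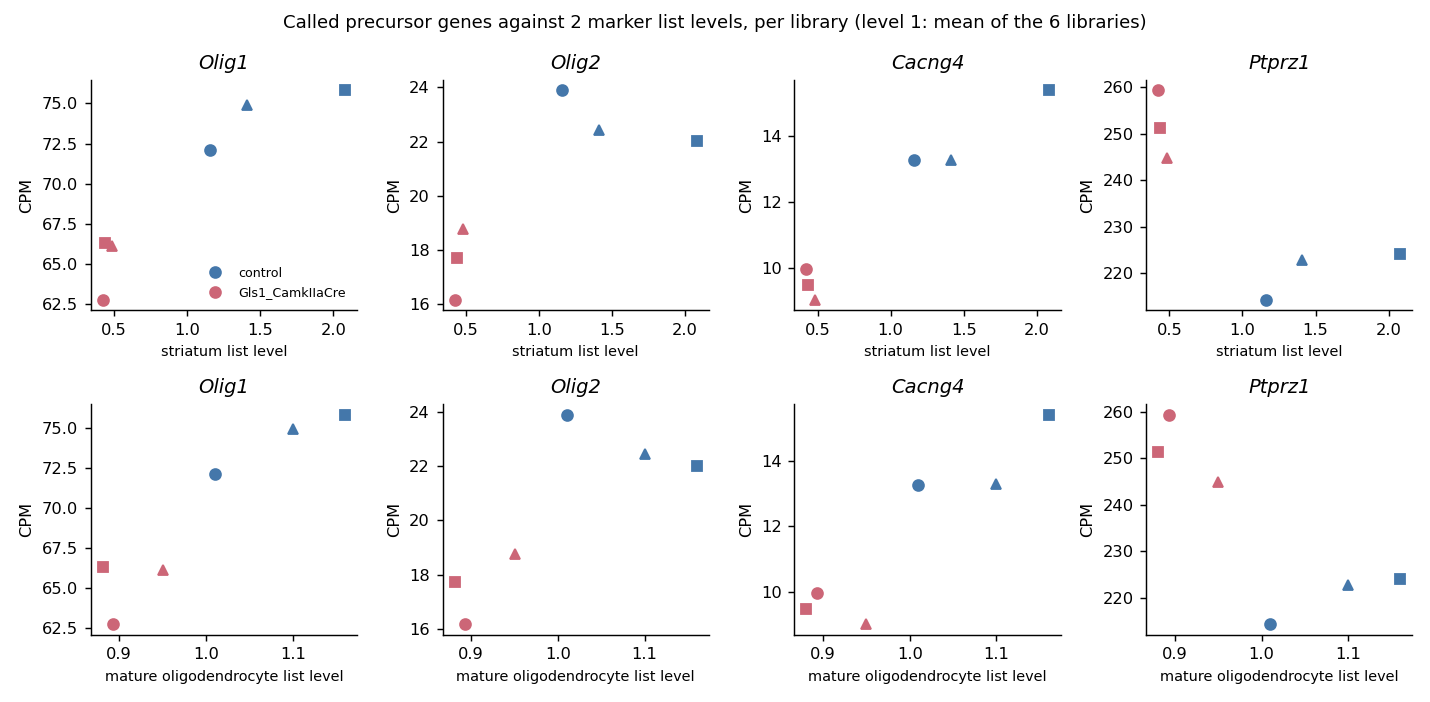
CPM of the 4 genes that passed (vertical axes, not from 0) against the level of the striatum list (top) and of the mature oligodendrocyte list (bottom), relative to the mean of the 6 libraries; each point is a library. Mutant libraries lie at a striatum level of 0.424 to 0.484 and controls at 1.16 to 2.08, so that the groups share no level on that axis.

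Within the controls, striatal transcripts were highest in replicate 2 and lowest in replicate 1. Olig1 (75.8, 74.9 and 72.1 CPM in replicates 2, 3 and 1), Cacng4 (15.41, 13.29 and 13.27), Ptprz1 (224.1, 222.8 and 214.3) and the relative level of the mature oligodendrocyte list (1.16, 1.10 and 1.01) had that same order, and Olig2 (22.0, 22.4 and 23.9 CPM) the opposite one. Sox10, which did not pass, also had the order of the striatal transcripts (31.7, 28.5 and 27.5 CPM). Pdgfra, Cspg4, Gpr17 and Vcan had neither order. Between the groups, Ptprz1 was higher in the mutants and the striatum level lower. Each order rests on 3 libraries, some of them close in value, and was not tested. When the striatum level entered edgeR as a covariate, an alternative chosen with the data in view, 0 of the 9 genes passed and 2 (Olig2 and Ptprz1) had an unadjusted p under 0.05. The log2 fold change was then -0.49 ± 0.177 for Olig2, -0.29 ± 0.218 for Cacng4, -0.11 ± 0.111 for Olig1 and 0.25 ± 0.093 for Ptprz1 (SE). That covariate correlated with group at -0.896 over the 6 libraries, so a difference due to genotype and one due to the tissue taken cannot be told apart by it.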

How the data were processed

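The authors deposited whole-number counts per gene and, for the same genes and libraries, FPKM values, as the column headers and values show. Per the submitters' processing notes the reads were placed on GRCm38 (mm10), and per the labels' protocols TRIzol RNA went into SMARTer mRNA-Seq libraries. Aligner, counting tool, FPKM tool and use of strand: not given in the sources used here. Samples were grouped by their titles, which match the column names.

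The main test on the counts was edgeR's (version 4.0.16, under R 4.3.3; TMM factors, filterByExpr, robust glmQLFit and glmQLFTest, no covariate) across 14440 genes, with Benjamini-Hochberg adjustment over all of them and a threshold of 0.05. Within each group, every pair of libraries differed beyond sampling noise (chi-square per degree of freedom 2.25 to 4.05), so none was a duplicate, and the series text counts 3 mice per group. The procedure was tested on simulated counts. Alternatives were DESeq2 1.42.0, limma 3.58.1 (voom, log2(FPKM + 1) and log2(FPKM + 0.1)), DESeq2 size factors, upper-quartile factors, no low-count filter, a minimum mean of 50 counts, a fit without robust, a replicate block and leaving out each library. The striatum level as a covariate was added later; for it, each striatum gene's CPM was divided by that gene's 6-library mean and the ratios were averaged.

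The 9 genes and the gene lists were chosen with earlier results of these data known. Named were the 9 genes, from each list every called gene where these were 6 or fewer, otherwise the 4 of smallest p, and the gene of smallest p where none was called, and for each of the 9 the most similar gene at a mean of 10 CPM or more. For several lists the 4 genes are given by count only. Not every gene picked by the rule is reported here. Positions and promoters are RefSeq's for GRCm38.p6, matched by gene identifier for 9 of 9 genes.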

Additional observations from a re-analysis of the deposited data

How the results depend on the processing

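Olig2, Cacng4 and Ptprz1 passed under all 16 alternatives other than the striatum covariate and Olig1 under 13, with log2 fold changes of -0.45 to -0.32, -0.62 to -0.48, 0.17 to 0.21 and -0.27 to -0.17. Pdgfra, Cspg4, Sox10, Gpr17 and Vcan passed under 0 of 16 (tools as listed for the processing; 0 of these 5 had an unadjusted edgeR p under 0.05 with the settings of the report). The number of the 9 that passed was 3 or 4 when a library was left out, and 0 with the striatum covariate (2 at an unadjusted p under 0.05). Their median log2 fold change was -0.142 on log2(FPKM + 1), -0.156 on log2(FPKM + 0.1) and 0.030 with the covariate, where Pdgfra (0.030), Sox10 (0.176) and Myrf (0.060) turned positive; leaving out a library gave -0.117 to -0.036. Gpr17 turned to -0.032 without control replicate 1, the lowest of its values of up to 0.185 with a library left out. Over all genes the calls numbered 674 (116 higher, 558 lower) on log2(FPKM + 1), 729 (122 and 607) on log2(FPKM + 0.1), 44 with the covariate, and 415 (without Gls1_CamkIIaCre replicate 2) to 1098 (without control replicate 3) when a library was left out, against 635 without control replicate 2, 763 without control replicate 1 and 778 without Gls1_CamkIIaCre replicate 1. Upper-quartile factors gave 36.4% of calls as higher against 48.0%, with the 4 calls among the 9 kept. The cause of these shifts was not tested. With a replicate block 1758 genes passed and the same 4 of the 9. Deviations of same-numbered libraries correlated at 0.206, -0.085 and 0.273, and those of differently numbered libraries at -0.301 to 0.151. These values do not settle whether the numbers pair the mice. Over 576 such alternatives for the 36 named list genes that passed, the call was kept in 496 and lost in 80, and the direction changed in 0. Cacng4, with 170 to 294 counts per library, and Cspg4, with 229 to 322, rest on the fewest reads.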
